A study of Homo sapiens with 6 samples.

Results

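Poly-N-acetyllactosamine (poly-LacNAc) chains are built by 2 kinds of enzyme that act in turn, and 10 genes for these enzymes and for the enzyme that branches the chains were examined in HCT116 colorectal cancer cells. The genes were B4GALT1 to B4GALT5 of the galactosyltransferases, B3GNT2, B3GNT3, B3GNT7 and B3GNT8 of the N-acetylglucosaminyltransferases, and GCNT2. They were chosen by name, and each was found through the RefSeq accession in a probe set's identifier. Each of the 10 had 1 probe set, so 10 of 1259 probe sets and 10 of the 927 named genes on this focused glycogene array are described. The RefSeq accessions were NM_001497.2 for B4GALT1, NM_003780.3 for B4GALT2, NM_003779.2 for B4GALT3, NM_003778.3 for B4GALT4, NM_004776.3 for B4GALT5, NM_006577.5 for B3GNT2, NM_014256.3 for B3GNT3, NM_145236.1 for B3GNT7, NM_198540.2 for B3GNT8 and NM_145649.3 for GCNT2.

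HCT116 is an established line with microsatellite instability, a defect that inactivates genes holding short repeats, the activin receptor gene ACVR2 among them. According to the sample titles the cells carried wild-type ACVR2 under doxycycline control, whereas the source label names 3 inducible genes, TGFBR2, ACVR2 and AIM2, for every sample. There were 3 arrays of cells given doxycycline (+DOX) and 3 of cells not given it (-DOX), all of them with activin A, the ligand of the receptor. The comparison asks whether glycan-building genes differ when the receptor is switched on. All groups therefore share activin A and the stable transfection, and cells with doxycycline but no inducible gene were not analysed here. An effect of the drug and an effect of the receptor cannot be told apart. The labels give no dose, no time of induction and no number of clones, and do not say that the replicates were separate cultures, so the p-values measure only the spread between these arrays, which may be technical.

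In a poly-LacNAc chain, B4GALT enzymes add galactose to N-acetylglucosamine (GlcNAc) and B3GNT enzymes add the next GlcNAc to that galactose. The repeats sit on N-glycans, O-glycans and glycolipids, are capped by sialic acid or fucose, and are bound by galectins. GCNT2 adds a side branch that turns the linear i antigen into the branched I antigen. In colorectal cancer such chains are a carrier of Lewis-type tumour antigens.

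Across the whole table, RMA values on a log2 scale had array medians between 7.61 and 7.65. The upper quartiles were less alike, from 9.21 on replicate 2 of +DOX to 9.38 on replicate 1 of -DOX. Replicate 3 of -DOX stood apart, with correlations across probe sets of 0.982 to 0.991 with the other 5 arrays, which correlated with each other at 0.995 to 0.999. The ACVR2A probe set read 8.15, 8.02 and 8.08 on the +DOX arrays (replicates 1, 2 and 3) and 8.25, 8.07 and 8.70 on the -DOX arrays. The gene meant to be induced was thus not higher with doxycycline (difference -0.26, SE 0.16; limma, adjusted p = 0.710), and whether its probes lie in the introduced sequence is not known. The probe set of TGFBR2, which the source label also names, was not higher either (difference -0.35; limma, unadjusted p = 0.155). The libraries are therefore named by their labels in every direction given below. Of 15 listed colon epithelial markers 4 were measured, with mean levels between 6.85 (MUC13) and 8.74 (MUC1). Of these 4, 1 was above the median of all values and 1 under the lower quartile. The defining markers EPCAM, CDH1 and VIL1 were not among the named genes and were not analysed here. Of 14 listed markers of leukocytes, endothelium, stroma and nerve 12 were measured, with mean levels from 6.004 to 7.75. Of these 12, 1 was above the median and 5 were under the lower quartile of the table (6.88). The ranges of both lists overlap. The summed level of those 12 ran from 81.86 to 81.91 log2 units with doxycycline and from 81.94 to 82.13 without it. The summed level of the 4 epithelial markers ran from 29.91 to 30.17 with doxycycline and from 30.15 to 30.45 without it, and the part of either list in the results was not tested.

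The 3 promoter stretches that follow belong to the members whose highest value was on the -DOX array that stood apart, and they are shown because these 3 genes lay above the other 5 arrays together there, a choice made after their values were seen. Each is the 250 bases before a RefSeq transcription start (GRCh38.p14), on the gene's own strand, with capitals marking the GC box GGGCGG or its reverse complement. They lie at chr2:62195865-62196114 (plus strand) for B3GNT2, chr3:119240879-119241128 (minus strand) for B4GALT4 and chr20:49713879-49714128 (minus strand) for B4GALT5, each just upstream of the annotated gene.
B3GNT2: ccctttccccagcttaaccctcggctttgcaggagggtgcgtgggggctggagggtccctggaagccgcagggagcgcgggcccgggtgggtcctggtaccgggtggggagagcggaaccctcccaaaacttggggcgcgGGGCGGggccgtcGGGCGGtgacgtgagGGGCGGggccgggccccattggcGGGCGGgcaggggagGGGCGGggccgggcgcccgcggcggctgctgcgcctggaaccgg
B4GALT4: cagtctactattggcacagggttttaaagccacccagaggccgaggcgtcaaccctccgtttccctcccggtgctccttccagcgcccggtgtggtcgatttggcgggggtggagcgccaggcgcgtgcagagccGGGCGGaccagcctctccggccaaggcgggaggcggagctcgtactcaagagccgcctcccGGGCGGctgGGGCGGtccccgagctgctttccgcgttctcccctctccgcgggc
B4GALT5: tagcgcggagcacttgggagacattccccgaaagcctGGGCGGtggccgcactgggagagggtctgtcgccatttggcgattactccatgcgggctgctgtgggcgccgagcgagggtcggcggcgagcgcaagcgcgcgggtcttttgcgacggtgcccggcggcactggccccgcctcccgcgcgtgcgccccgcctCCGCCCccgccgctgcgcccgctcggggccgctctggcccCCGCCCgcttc
The stretches held 5, 3 and 3 GC boxes, and their GC content was 77.6%, 70.0% and 75.6%. B3GNT2 has another listed start, whose window is not shown and held 0 GC boxes at a GC content of 56.8%. Over all 10 genes RefSeq lists 18 such windows, because several genes have more than 1 start. The windows of B4GALT1 overlap and share some GC boxes. The GC box was in 10 of the 18 windows (55.6%), against 42.6% of all 35116 promoter windows in the table. The sequence GGCGC, a GC-rich element that SMAD proteins can bind, was in 9 of 18 against 44.5%, and CAGAC, the core of another SMAD element, in 10 of 18 (55.6%) against 38.0%. Both strands were searched, and matches of different motifs could overlap. SMAD proteins carry the activin signal to the nucleus, and a match describes these letters only. The GC content was above the 58.0% median of all windows in 12 of 18 windows. The array does not show which start was in use.

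The 10 probe sets fell at different heights in the brightness order of each array. Brightness depends on the probes as well as on the transcript, so the ranks give each probe set's place in the array and not the order of transcript amounts. B4GALT5, B4GALT3, B4GALT2 and B4GALT1 were above the upper quartile on all 6 arrays, with ranks of their mean of 156, 210, 219 and 233 among 1259. B3GNT2 and B4GALT4 ranked 344 and 431. B3GNT8, at 662, lay close to the table's median of 7.63. GCNT2, B3GNT3 and B3GNT7 were below the median on all 6 arrays, at 783, 885 and 935. B3GNT7 (6.89) and B3GNT3 (6.99) lay near the lower quartile, and the table has no detection calls, so how much of such a value is background is unknown. The genes differed in how far their ranks moved between arrays. B4GALT5 ranged from 139 to 162 and B4GALT3 from 203 to 237. GCNT2 moved most of the 10, from 731 to 828, followed by B3GNT2, from 289 to 385. B3GNT7 ranged from 903 to 976 and B3GNT3 from 873 to 944.

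**Figure D1:**
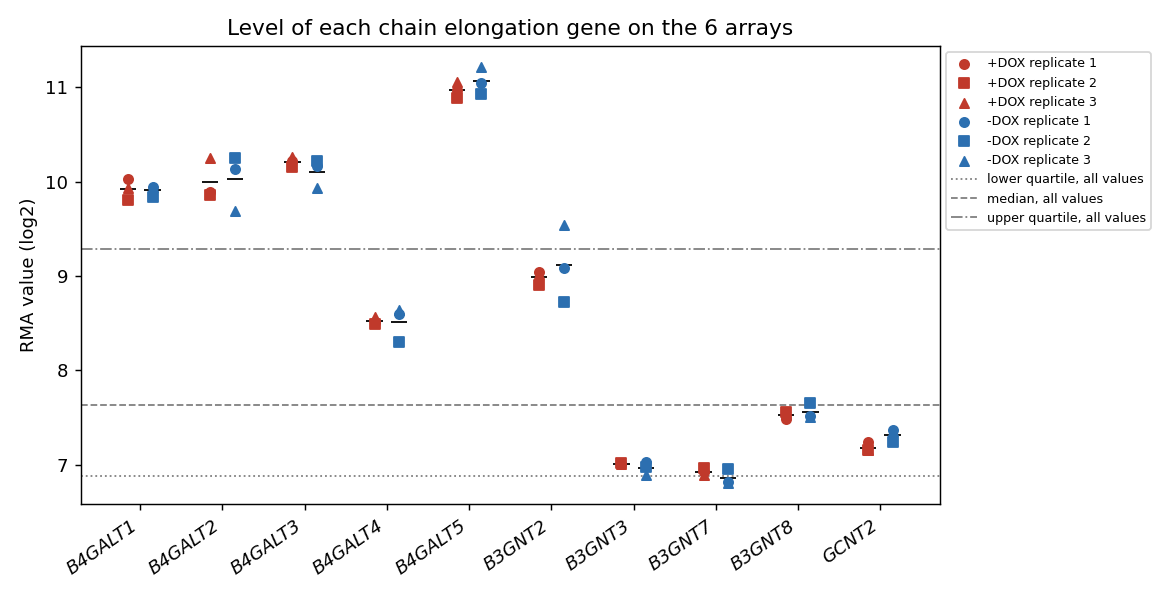
RMA values (log2) of the 10 genes on the 3 +DOX arrays (red) and the 3 -DOX arrays (blue), with short black bars for group means and grey lines for the quartiles and median of all values. B4GALT1, B4GALT2, B4GALT3 and B4GALT5 lie above the upper quartile on every array, and GCNT2, B3GNT3 and B3GNT7 below the median.

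The galactosyltransferase genes did not move together with doxycycline: 3 had higher and 2 had lower values, none past the threshold, with a median difference of 0.0090 log2 units. B4GALT1, the main enzyme of LacNAc synthesis and the partner of alpha-lactalbumin in lactose synthesis, read 10.03, 9.81 and 9.93 with doxycycline and 9.94, 9.84 and 9.94 without it. The -DOX values lay inside the +DOX range. The difference was 0.01 (SE 0.07, 95% interval -0.16 to 0.18; limma, adjusted p = 0.968).

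B4GALT2, a close relative of B4GALT1 that also makes LacNAc, varied widely in both groups. It read 9.89, 9.86 and 10.25 with doxycycline and 10.14, 10.26 and 9.69 without it. The means were 10.00 ± 0.22 and 10.03 ± 0.30 (SD, n = 3 each), so the spread within each group was many times the difference of -0.03 (SE 0.18; limma, adjusted p = 0.972). Both its highest and its lowest array were -DOX arrays. Without replicate 3 of -DOX the difference was -0.20 (limma, adjusted p = 0.734), and without replicate 2 of -DOX it was 0.09 (limma, adjusted p = 0.830).

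B4GALT3, which makes LacNAc on N-glycans, had the largest positive difference of the 10 genes. Its values were 10.22, 10.16 and 10.26 with doxycycline and 10.16, 10.21 and 9.94 without it. The third -DOX array was the low one and the groups overlapped. The difference of 0.11 (SE 0.08, 95% interval -0.10 to 0.31; limma, adjusted p = 0.730) shrank to 0.02 without that array.

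B4GALT4, which acts well on sulphated GlcNAc as in keratan sulphate, read 8.52, 8.49 and 8.56 with doxycycline and 8.60, 8.30 and 8.64 without it. The +DOX values lay between the lowest and the highest -DOX value. The difference was 0.0090 (SE 0.10; limma, adjusted p = 0.992), with a -DOX spread of 0.19 (SD, n = 3) against 0.04 with doxycycline.

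B4GALT5, which is known for making lactosylceramide, the base of most glycolipids, was the brightest of the 10 probe sets. It read 10.97, 10.88 and 11.05 with doxycycline and 11.04, 10.92 and 11.22 without it. The groups overlapped, with the highest value on replicate 3 of -DOX. The difference of -0.09 (SE 0.09, 95% interval -0.31 to 0.13; limma, adjusted p = 0.731) was -0.02 without that array.

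The GlcNAc-transferase genes that lengthen the chain also split, with 2 higher and 2 lower and a median of 0.0050. B3GNT2, the principal poly-LacNAc synthase, had the widest spread of all 10. It read 9.05, 8.91 and 9.02 with doxycycline, and 9.09, 8.73 and 9.54 without it. All +DOX values fell between the lowest and the highest -DOX value. The means were 8.99 ± 0.08 with doxycycline and 9.12 ± 0.41 without (SD, n = 3 each), and the difference was -0.13 (SE 0.20, 95% interval -0.63 to 0.38; limma, adjusted p = 0.835). The sign rested on replicate 3 of -DOX, since the difference was 0.08 without it (limma, adjusted p = 0.880) and -0.32 without replicate 2 of -DOX (limma, adjusted p = 0.291).

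B3GNT8, which forms a complex with B3GNT2 and raises its activity, read 7.48, 7.56 and 7.54 with doxycycline and 7.52, 7.65 and 7.50 without it. The groups overlapped, and the difference was -0.03 (SE 0.05; limma, adjusted p = 0.853). Where B3GNT2 was highest, on replicate 3 of -DOX, B3GNT8 was 0.05 below the mean of the other 5 arrays, and where B3GNT2 was lowest, on replicate 2 of -DOX, B3GNT8 had its highest value.

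B3GNT3, which extends core 1 O-glycans, was the steadiest probe set. It read 7.003, 7.02 and 7.003 with doxycycline and 7.03, 6.98 and 6.89 without it, spanning 0.14 log2 units in all. The difference was 0.04 (SE 0.05, 95% interval -0.07 to 0.15; limma, adjusted p = 0.750), and it was 0.0023 without replicate 3 of -DOX and 0.07 without replicate 1 of -DOX. B3GNT7, an enzyme of keratan sulphate chains, read 6.93, 6.97 and 6.89 with doxycycline and 6.82, 6.96 and 6.80 without it. Its groups overlapped through replicate 2 of -DOX, and the difference was 0.07 (SE 0.06, 95% interval -0.07 to 0.21; limma, adjusted p = 0.730), or 0.12 without replicate 2 of -DOX and 0.04 without replicate 3 of -DOX. In their mean over the 6 arrays both probe sets lie just above the lower quartile (6.88). B3GNT7 was below that quartile on replicates 1 and 3 of -DOX and in its -DOX mean (6.86). A filter on the mean at that quartile removed none of the 10 genes.

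GCNT2, the I-branching enzyme, had the largest difference in size of the 10 and was lower with doxycycline without passing the threshold. It read 7.24, 7.15 and 7.15 with doxycycline and 7.37, 7.24 and 7.36 without it. Replicate 1 of +DOX (7.239) was just above replicate 2 of -DOX (7.236), so the groups overlapped at that pair. The means were 7.18 ± 0.05 and 7.32 ± 0.07 (SD, n = 3 each), a ratio of 0.909. The difference was -0.14 (SE 0.05, 95% interval -0.27 to -0.01; limma, unadjusted p = 0.0397, adjusted p = 0.581). It stayed between -0.18 and -0.11 when any of the 6 arrays was left out, and none of these values passed the threshold either. Its unadjusted p was under 0.05 in 5 of 12 alternatives and not in the other 7, among them centring, renewed quantile normalization and leaving out replicate 1 or 3 of -DOX or replicate 2 or 3 of +DOX. The identifiers of this probe set and of B3GNT7 end in s_at, which in Affymetrix naming marks probes shared by several transcripts, so a related transcript may contribute. GCNT2 has several starts that give different transcripts, and they cannot be told apart here.

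**Figure D2:**
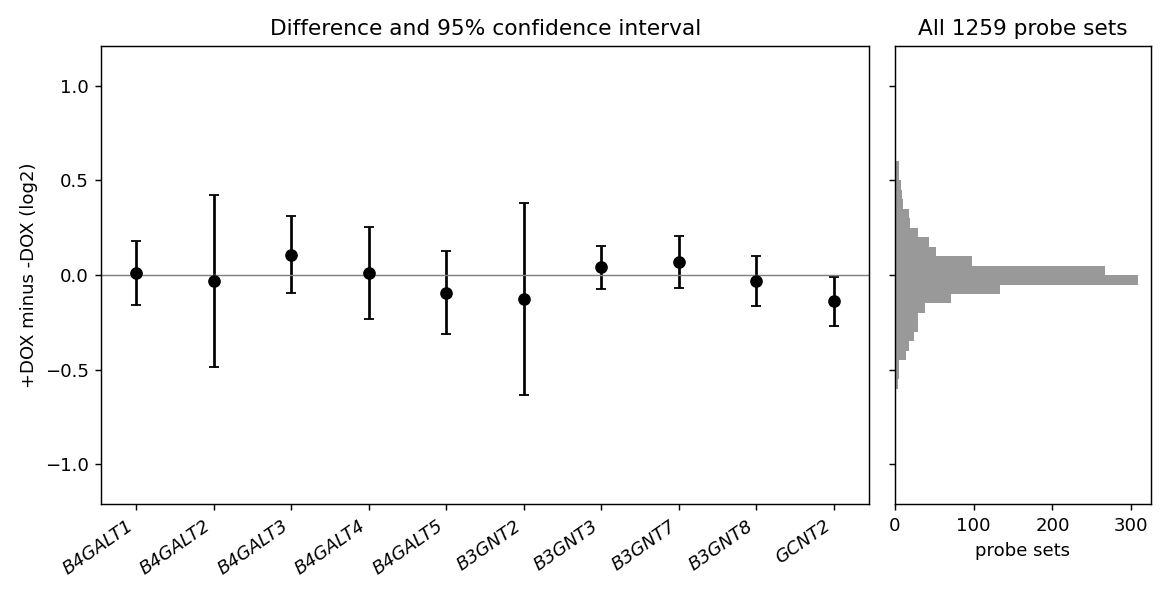
Left, difference +DOX minus -DOX (log2) of each gene with its 95% confidence interval from limma. Right, the same difference for all 1259 probe sets on the same axis. The intervals of 9 of the 10 genes include 0, the exception being GCNT2 before adjustment, and the widest belongs to B3GNT2.

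Together, 5 of the 10 genes had higher and 5 lower values on the +DOX arrays, with a median difference of -0.01, the same to that precision as over all 927 named genes (-0.01), of which 55.2% were lower. With limma, 0 of the 10 genes passed an adjusted p of 0.05, as did 0 of 1259 probe sets (0.0%). At an unadjusted p under 0.05 there was 1 gene of the 10, GCNT2, lower with doxycycline, beside 98 of 1259 probe sets (7.78%), 4.53% of all probe sets being lower at that p, so the share of the 10 genes is near the background. The 98 moved to 45 without replicate 1 of +DOX, to 53 without replicate 2 of +DOX, to 246 with array weights and to 258 without replicate 2 of -DOX, where B3GNT7 joined GCNT2. Those 98 were 41 higher and 57 lower, a split that became 63 and 44 with each array centred on its median. None of the 10 genes had groups that did not overlap, beside 15.8% of all probe sets, 8.26% with all +DOX values lower and 7.55% with all higher. The median size of the difference was 0.0546 log2 units for the 10 genes and 0.0629 over all named genes. All 10 differences were smaller than 0.2 log2 units in size, as were 80.6% of those of all probe sets. The 95% interval lay inside 0.5 log2 units (1.41-fold) to either side for 9 of the 10 genes and inside 0.3 (1.23-fold) for 6, while for B3GNT2 it reached a fall of 0.63.

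Array by array, the +DOX values were set against the mean of the 3 -DOX arrays. B3GNT3, B3GNT7 and B4GALT3 were above that mean on all 3 +DOX arrays, by 0.04 to 0.05, 0.03 to 0.11 and 0.05 to 0.15. GCNT2 was below it on all 3, by -0.08, -0.17 and -0.17. B3GNT2, B4GALT5 and B3GNT8 were also below it on all 3, from -0.21 to -0.07, from -0.18 to -0.01 and from -0.08 to -0.0019. B4GALT1, B4GALT2 and B4GALT4 lay on both sides. These counts do not carry the spread of the -DOX arrays, in which all 10 genes overlapped the +DOX values. The share of all probe sets lying on the same side on all 3 +DOX arrays was not computed. The counts therefore have no background to be read against.

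These genes varied more among the -DOX arrays. The SD was larger without doxycycline than with it for 9 of 10 genes, B4GALT1 being the exception, and for 79.2% of all named genes. Replicate 3 of -DOX held the highest or the lowest value of 7 of the 10 genes, and of 61.6% of all probe sets. On that array B3GNT2 was 0.58, B4GALT5 0.24 and B4GALT4 0.15 above the mean of the other 5 arrays. On the same array B4GALT2 was at -0.39, B4GALT3 at -0.27, B3GNT3 at -0.12 and B3GNT7 at -0.11 relative to that mean. The 10 genes thus did not shift one way there: 5 were above and 5 below. Replicate 2 of -DOX ran the other way for the widest genes, with B3GNT2 at -0.39, B4GALT4 at -0.26 and B4GALT2 at 0.29. For B4GALT2, B4GALT4, B3GNT2 and B3GNT3 both the highest and the lowest value came from -DOX arrays, as for 33.4% of all probe sets. Other arrays were less evenly split. On replicate 2 of +DOX 3 genes were above the mean of the other 5 arrays and 7 below, while 48.4% of all probe sets were above. The median deviation of the 10 genes there was -0.08. On replicate 1 of -DOX 8 were above and 2 below, beside 62.7% of all probe sets above. The cause was not tested.

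**Figure D3:**
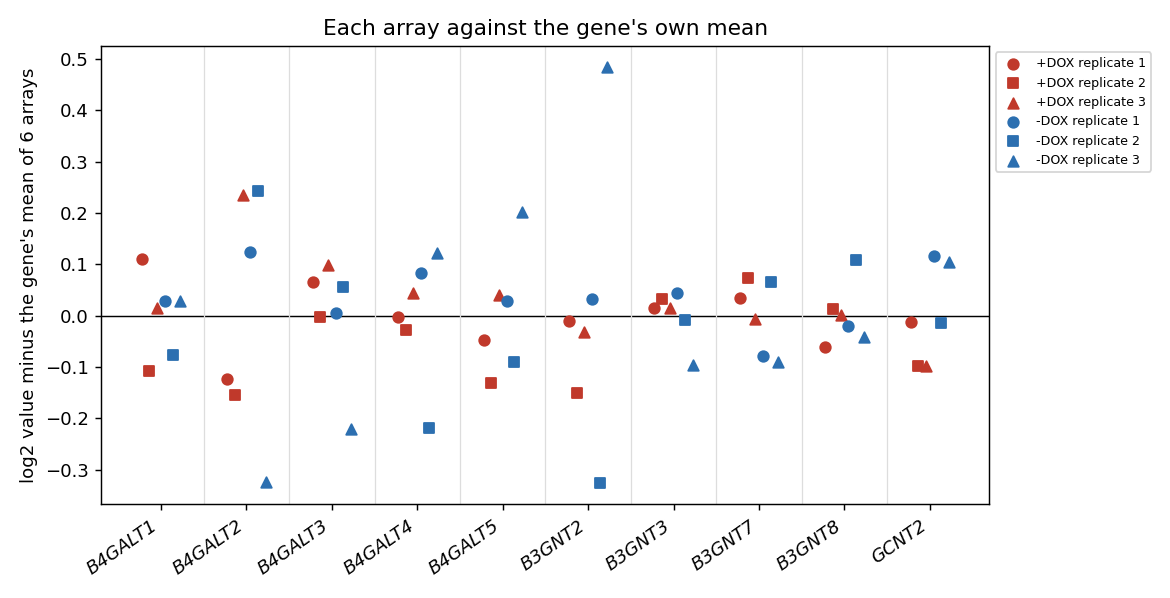
Each array's log2 value minus the gene's mean over the 6 arrays, +DOX in red and -DOX in blue, with a marker shape for each replicate number. The blue triangle (replicate 3 of -DOX) is the highest point for B3GNT2, B4GALT4 and B4GALT5 and the lowest for B4GALT2, B4GALT3, B3GNT3 and B3GNT7.

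The widest spread over the 6 arrays was that of B3GNT2 (SD 0.27, wider than 86.8% of probe sets), followed by B4GALT2 (0.23, wider than 83.2%) and B4GALT4 (0.12, wider than 62.4%). The genes most alike to these were found by the root mean square difference of mean-centred log2 values over the 6 arrays. For B3GNT2 they included PAPSS2, which makes the sulphate donor (0.0566 log2 units), where the median over all other genes was 0.261. PAPSS2 read 10.38, 10.37 and 10.44 with doxycycline and 10.54, 10.07 and 11.02 without it, again with the -DOX arrays 2 and 3 at the ends. For B4GALT2 they were FGFR3, a growth factor receptor gene (0.0502), and B3GAT3, an enzyme of the glycosaminoglycan linker (0.067), against a median of 0.217. For B4GALT4 they were GCNT1, the core 2 branching enzyme (0.0289), and the interferon gamma receptor gene IFNGR1 (0.0309), against 0.143. These genes were picked as the closest of all other named genes, so their values lie under the median by construction. The contrast with the median is no evidence of a special likeness. All of these share the same 6 arrays, so the likeness includes whatever set those arrays apart.

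**Figure D4:**
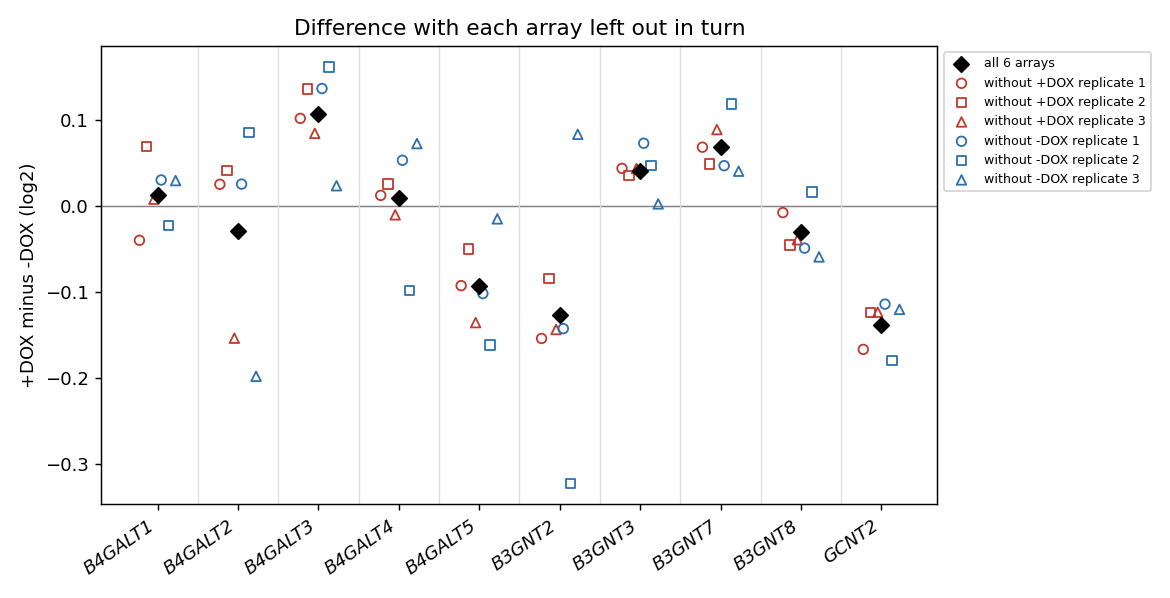
Difference +DOX minus -DOX (log2) with all 6 arrays (black diamonds) and with each array left out in turn (open symbols, coloured by the group of the array left out). B3GNT2 ranges from -0.32 to 0.08 and B4GALT2 from -0.20 to 0.09, while GCNT2 stays between -0.18 and -0.11.

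The other genes of the pathway were read from 5 lists. Related galactosyl- and GlcNAc-transferases had 14 of 15 genes measured, 6 higher and 8 lower with doxycycline, with 0 past the threshold in either direction (limma) and a median of -0.03. Without replicate 3 of -DOX 4 were higher and 10 lower, and the median was -0.0094. B4GAT1, which primes the laminin-binding glycan of dystroglycan, was at 0.20 (SE 0.09), B3GALT2 at -0.10 (SE 0.05) and B3GNT6, the core 3 enzyme, at -0.08 (SE 0.06). Without replicate 3 of -DOX B4GAT1 was at 0.11 and B3GNT6 at -0.14. The enzymes that open N-glycan antennae, on which poly-LacNAc is built, had 7 of 8 measured, 3 higher and 4 lower, none past the threshold, and their median was -0.03. Without replicate 3 of -DOX 2 were higher and 5 lower, and the median was -0.04. MGAT5, whose branch is a preferred site of poly-LacNAc, was at -0.08 (SE 0.04), MGAT5B at 0.15 (SE 0.09) and MGAT4A at -0.20 (SE 0.16). Without that array MGAT5B was at 0.07 and MGAT4A at -0.05.

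Genes that supply and carry UDP-galactose and UDP-GlcNAc, the donor sugars, had 11 of 12 measured, 9 higher and 2 lower, none past the threshold, and their median was 0.07. Without replicate 3 of -DOX they were 6 higher and 5 lower, and the median was 0.02. GFPT2, which starts UDP-GlcNAc synthesis, was at -0.13 (SE 0.11), and at -0.01 without replicate 3 of -DOX, and the galactokinase-family gene GALK2 was at 0.08 (SE 0.07), and at 0.13 without that array.

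Genes that cap or sulphate the chains had 18 of 18 measured, 6 higher and 12 lower, none past the threshold, and their median was -0.03. Leaving out replicate 3 of -DOX made this 3 higher and 15 lower, with a median of -0.04. B4GALNT4, which puts N-acetylgalactosamine in place of galactose, read 8.25, 8.31 and 8.79 with doxycycline and 8.99, 9.07 and 8.63 without it. Its groups overlapped through the third replicates, and the difference was -0.45 (SE 0.19; limma, adjusted p = 0.656). Without replicate 3 of -DOX the difference of B4GALNT4 was larger in size, at -0.58. The fucosyltransferase genes FUT3 and FUT4 were at -0.08 (SE 0.04) and -0.27 (SE 0.12), and FUT4 was at -0.15 without replicate 3 of -DOX. The groups of FUT3 did not overlap, with all +DOX values lower, as for 8.26% of all probe sets. Carriers and readers of the chains, namely LAMP proteins and galectins, had 10 of 10 measured, 5 higher and 5 lower, none past the threshold, and their median was -0.01. Without replicate 3 of -DOX 4 were higher and 6 lower. LAMP2 has 2 probe sets that differ in sign. The brighter, counted here, was at -0.20 (SE 0.26), and at 0.06 without replicate 3 of -DOX. The other was at 0.26 (limma, unadjusted p = 0.0198). LGALS3, the galectin best known for binding poly-LacNAc, read 12.28, 12.36 and 12.29 with doxycycline and 11.92, 11.97 and 10.99 without it. Its groups did not overlap, as for 15.8% of all probe sets. The difference of 0.68 (SE 0.27; limma, adjusted p = 0.627) was 0.36 without replicate 3 of -DOX. LGALS12 and LGALS1 were at -0.07 (SE 0.04) and 0.27 (SE 0.19), and LGALS1 was at 0.06 without that array. The groups of LGALS12 did not overlap either, with all +DOX values lower, as for 8.26% of all probe sets. The LGALS12 means, 6.80 with doxycycline and 6.87 without it, lay under the lower quartile of 6.88. How much of them is background is unknown.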

How the data were processed

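Expression was measured on 6 single-colour arrays, 3 per group. The authors deposited log2 values. Per the submitters' processing notes they came from RMA (version not given in the sources used here), a method that subtracts background, quantile normalizes and combines the probes of a set. Array design and genome build are not given in the sources used here. Probe sets were named through their RefSeq accession, version dropped, and a RefSeq gene table (GRCh38.p14): 1043 of 1259 (82.8%) had 1 symbol, 190 carried no RefSeq accession and 26 an accession outside the table. No pair of arrays held identical values. The test of +DOX against -DOX was limma's (version 3.58.1, R 4.3.3; lmFit and eBayes, two-sided, Benjamini-Hochberg over 1259 probe sets, threshold 0.05), with no block and no filter. The fit was tested on simulated data that had the +DOX spread on all 6 arrays and no array standing apart. The -DOX spread was larger for 79.2% of named genes, so the simulation does not show what could be detected in these data. The number of arrays limits the precision. For a list gene with several probe sets the brightest on average was used. All 10 members are named; in each pathway list the rule names up to 3 genes with the smallest p, and 2 genes most alike to each of the 3 members with the widest spread. Some genes that the rule takes are not reported here. The members and lists were chosen with earlier results of these data known. Alternatives were centring, renewed quantile normalization, array weights, another variance prior, a filter on dim probe sets, a replicate block, the mean of all probe sets of a gene and leaving out each array. Promoter windows come from a RefSeq table, of which the 250 bases before the start were used.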

Additional observations from a re-analysis of the deposited data

How the results depend on the processing

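No member passed the threshold in the 12 alternatives that give a p. Of these, 9 can change a member's difference, and 4 of the 10 genes (B4GALT3, B4GALT5, B3GNT7 and GCNT2) kept their sign in those 9. The variance prior, the filter and the block leave the differences as they are, and so does the mean over probe sets, since each member has 1. With array weights, whose estimation stopped short of its convergence tolerance, 1 of 1259 probe sets passed (limma), not a member; in the other 11 alternatives with a p the count was 0. Quantile normalizing again turned B4GALT2 to 0.0007, and array weights turned B4GALT4 to -0.041 and B3GNT3 to -0.0075. With each array left out in turn, differences ranged from -0.04 to 0.069 for B4GALT1, from -0.20 to 0.085 for B4GALT2, from -0.098 to 0.072 for B4GALT4, from -0.32 to 0.083 for B3GNT2 and from -0.059 to 0.016 for B3GNT8, and the median of the 10 genes from -0.025 to 0.030; the cause was not tested. Deviations of same-numbered arrays from their group means correlated at -0.15, -0.04 and -0.16. Those of differently numbered arrays ran from -0.17 to 0.21. With 3 arrays per group this cannot decide whether the replicate numbers pair the cultures. With the replicate number as a block 0 probe sets passed and the median of the 10 genes was -0.01, as without it. The table has no detection calls, so the share of background in probe sets near the lower quartile, such as B3GNT3 and B3GNT7, is not known.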
